A study of Mus musculus with 10 samples.

Results

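Matrix glycoproteins of activated stroma are described here through 10 genes: FN1, POSTN, TNC, SPARC, THBS1, THBS2, FBN1, FBLN1, FBLN2 and ELN. The genes were chosen by name, as a set of secreted glycoproteins that fill the space between stromal cells. All 10 were found among the 16895 gene symbols of the deposited files, and all 10 passed the filter on low values, which left 13707 genes. RNA was sequenced from 10 mouse tumors described as meningioma-like, which were NLS-2SA-YAP1 tumors (n = 3) and YAP1-MAML2-v2 tumors (n = 7). YAP1 drives transcription with TEAD factors and is held in check by Hippo signalling. NLS-2SA-YAP1 is an activated, nuclear form of it, and YAP1-MAML2-v2 is a version of a fusion that joins YAP1 to a Notch coactivator. By region 3 libraries were extra axial, 6 were extra cranial and 1 was intra ventricular.

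In both construct groups the mice were Cdkn2a null and carried tv-a, the receptor of the virus, under control of Nestin, so the Nestin-expressing cells of the newborn set which cells could be infected. The virus was an avian RCAS vector made by chicken DF1 fibroblasts, which were placed in the subarachnoid space within days of birth. The labels give DF1 as the cell type of every sample, but it names the injected producer cells and not the tumor. No normal meninges and no uninfected animals were analysed here. The age at tumor collection and whether replicates came from separate litters are not given in the labels, so p-values measure only the spread between these tumors, part of which may be technical. The deposited names of YAP1-MAML2-v2 replicates 6 and 7 share a number, and the labels do not say whether both came from 1 mouse. By construct and region, NLS-2SA-YAP1 replicate 1 was extra axial, and replicates 2 and 3 were extra cranial. YAP1-MAML2-v2 replicates 2 and 6 were extra axial, replicates 1, 3, 4 and 5 extra cranial, and replicate 7 intra ventricular.

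Fibronectin is secreted as a dimer, is pulled into fibrils by integrins and forms the first scaffold on which collagen and other glycoproteins are laid down. Elastin and fibrillin build elastic fibers, and fibulins link the fibrillin microfibrils to elastin and to basement membranes. Periostin, tenascin-C, SPARC and the thrombospondins are matricellular proteins, which change how cells hold on to the matrix more than they bear load. Fibroblasts of the meninges, like those of wounds and tumors, are a known source of such matrix.

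Depth is uncertain, because the deposited values may not be plain read counts. Library totals ran from 28001143 to 44544314, and in each library the genes at 1 outnumbered those at 2 by 4.54 to 6.82 times. None of the 100 values of the 10 genes was 0 or 1, and the lowest was a 2. Levels are given as CPM, for which every library was brought to a common total with edgeR's TMM factors. Of 9 marker genes of arachnoid and meningeal fibroblasts, each was above 0 in 8 libraries, and 1 of the 9 was listed at 0 in each of YAP1-MAML2-v2 replicates 5 and 6. Fewer cells of a type and less RNA per cell cannot be told apart in such bulk tumors.

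Per kilobase of exon, SPARC and FN1 were the highest of the 10 genes. SPARC, a collagen-binding matricellular protein, had a median of 486 CPM per kilobase over the 10 libraries, and FN1 had 410. Each of the pair ranked first in 5 libraries. FBLN1 followed at 78.4, FBN1 at 43.4, ELN at 29.5 and THBS1 at 24 CPM per kilobase. POSTN stood at 11.5, and FBLN2, THBS2 and TNC were lowest at 4.51, 4.33 and 3.6. Ranges across libraries were wide enough that the lower 6 genes of this order overlapped one another. ELN, for example, spanned 6.72 to 219 CPM per kilobase and TNC 0.395 to 64.7. Together the 10 genes took 0.586% to 2.9% of a library's total, the least in the intra ventricular library and the most in YAP1-MAML2-v2 replicate 3. As summed CPM, NLS-2SA-YAP1 replicate 1 was lowest at 5900, and the intra ventricular library had 6180.

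**Figure D1:**
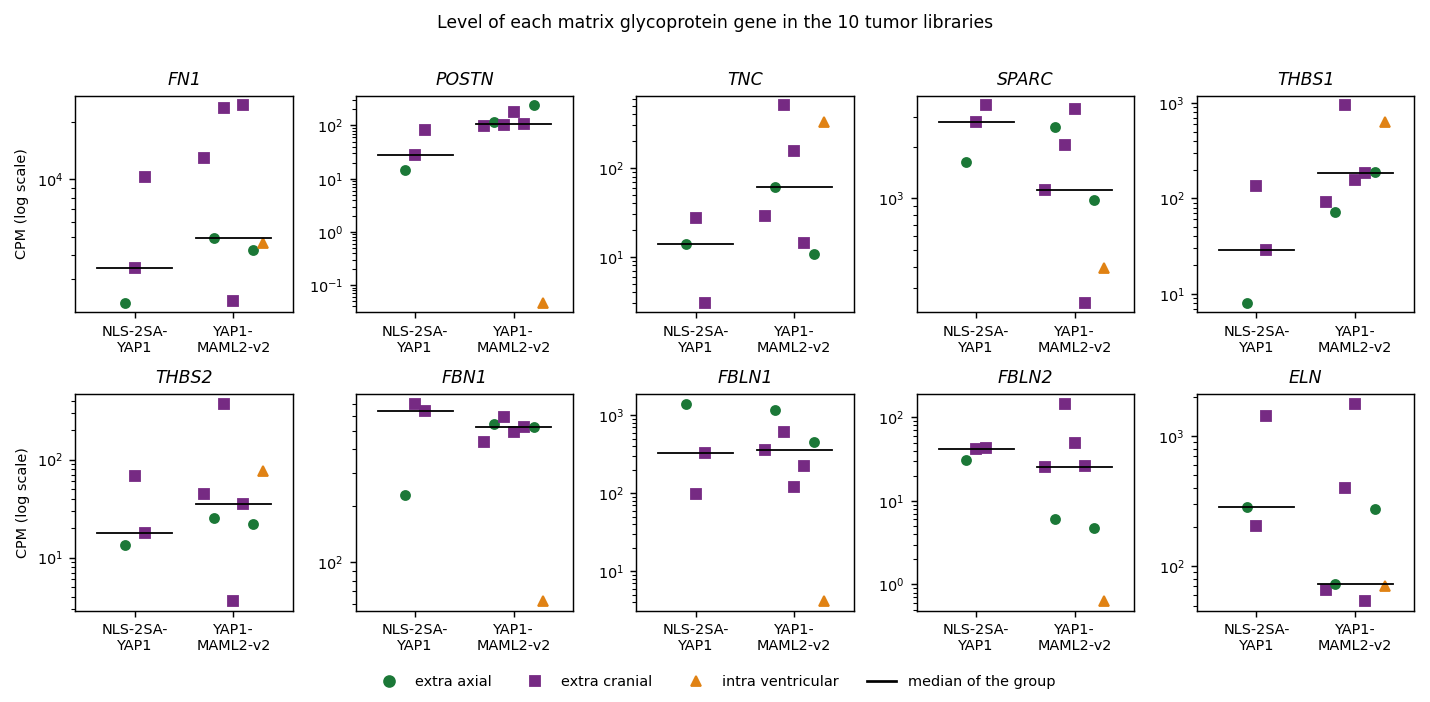
CPM on a log scale for each of the 10 genes, with NLS-2SA-YAP1 libraries (n = 3) left and YAP1-MAML2-v2 libraries (n = 7) right in each panel; each point is 1 library, the shape and color give its region and the line is the group median. The intra ventricular triangle sits far below every other library for POSTN (0.0474 CPM), FBLN1 (4.21 CPM) and FBLN2 (0.639 CPM), and among the upper points for TNC and THBS1.

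The first comparison asks whether the genes differed between NLS-2SA-YAP1 and YAP1-MAML2-v2 tumors. Region was a term, and the intra ventricular library had a term of its own, so the construct estimates rest on the other 9 libraries. Means over the 7 YAP1-MAML2-v2 tumors include the intra ventricular one, so they can differ from the estimates. edgeR's quasi-likelihood test called none of the 10 genes at an adjusted p under 0.05, where 0.0146% of all tested genes were called. At an unadjusted p under 0.05, POSTN and THBS1 were lower in NLS-2SA-YAP1 tumors, which is 2 of 10 genes against 13.1% of all genes. In the direction of lower values the share over all genes was 7.61%. Of the 10 estimates, 3 were positive and 7 negative, with a median log2 fold change of -0.62 against -0.03 over all genes.

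POSTN encodes periostin, a fasciclin-domain protein of collagen-rich matrix that is induced in wounds and tumor stroma. Mouse Postn lies on chromosome 3 at 54361109 to 54391037 (+ strand), and all gene positions are those of the GENCODE annotation of mm10. Among NLS-2SA-YAP1 tumors it stood at 14.7, 27.9 and 81.1 CPM in replicates 1, 2 and 3. YAP1-MAML2-v2 libraries outside the ventricle held 99.1, 115, 101, 176, 106 and 238 CPM in replicates 1 to 6, and the intra ventricular replicate 7 held 0.0474 CPM. Outside the ventricle every NLS-2SA-YAP1 library was below every YAP1-MAML2-v2 library. Of the 10 genes only POSTN separated the groups in that way, where 9% of all tested genes did and 4.28% of all did so with the lower values in NLS-2SA-YAP1 tumors. The log2 fold change was -1.78 (SE 0.60), with an edgeR adjusted p of 0.283 and an unadjusted p of 0.015. DESeq2 called it (log2 fold change -1.8, adjusted p = 0.0303), where it called 5.3% of all genes with an adjusted p and 3.56% as lower. Without a region term, so that the intra ventricular library counts as an ordinary member of its group, the edgeR estimate was -1.53 and the unadjusted p was 0.255. The estimate was -1.15 without NLS-2SA-YAP1 replicate 1, with an unadjusted edgeR p of 0.064, and -2.69 without replicate 3.

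THBS1 encodes thrombospondin-1, a trimeric glycoprotein that activates latent TGF-beta and restrains vessel growth. Mouse Thbs1 lies on chromosome 2 at 118111876 to 118127133 (+ strand). NLS-2SA-YAP1 replicates 1, 2 and 3 had 8.09, 135 and 28.7 CPM. YAP1-MAML2-v2 replicates 1 to 7 had 90.9, 72.1, 938, 157, 182, 188 and 628 CPM. The groups overlapped through NLS-2SA-YAP1 replicate 2, and the highest values were those of YAP1-MAML2-v2 replicates 3 and 7. The edgeR estimate was a log2 fold change of -2.6 (SE 0.97), at an adjusted p of 0.31 and an unadjusted p of 0.0239. It was -1.66 without YAP1-MAML2-v2 replicate 3, and the unadjusted edgeR p was then 0.0835. DESeq2 also called THBS1 (log2 fold change -2.64, adjusted p = 0.0184).

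The count of genes at an unadjusted edgeR p under 0.05 was 0 without NLS-2SA-YAP1 replicate 1. It was 1 without NLS-2SA-YAP1 replicate 2 or replicate 3, and in the extra cranial libraries alone it was 0. Over 26 alternative fits the unadjusted p was under 0.05 in 21 for POSTN and in 19 for THBS1. These fits reuse the same libraries, and several change only the scaling or the filter. The fit without the intra ventricular library is counted again as the fit without YAP1-MAML2-v2 replicate 7. Counts over these fits, here and below, are therefore not independent tests.

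TNC and THBS2 also averaged less in NLS-2SA-YAP1 tumors, with wide error. TNC encodes tenascin-C, a hexameric glycoprotein of wounds, tumors and the developing brain, on chromosome 4 at 63959785 to 64047015 (- strand). NLS-2SA-YAP1 replicates 1, 2 and 3 had 14, 27.3 and 3.07 CPM of it. In YAP1-MAML2-v2 replicates 1 to 7 it had 28.7, 61.4, 503, 153, 14.2, 10.9 and 329 CPM. Replicates 3, 4 and 7 were high, and replicates 5 and 6 lay within the NLS-2SA-YAP1 range. The edgeR estimate was a log2 fold change of -2.71 (SE 1.39), at an adjusted p of 0.448. It ran from -3.53 without NLS-2SA-YAP1 replicate 1 to -1.83 without YAP1-MAML2-v2 replicate 3. THBS2, the second trimeric thrombospondin, lies on chromosome 17 at 14665500 to 14694235 (- strand). It had 13.4 to 67.7 CPM in NLS-2SA-YAP1 libraries and 3.63 to 372 CPM in YAP1-MAML2-v2 libraries, with an estimate of -1.21 (SE 1.15; edgeR adjusted p = 0.713). Without YAP1-MAML2-v2 replicate 3, the library with 372 CPM, the THBS2 estimate was 0.17.

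FN1, on chromosome 1 at 71585520 to 71653200 (- strand), was measured in NLS-2SA-YAP1 replicates 1, 2 and 3 at 2270, 3450 and 10300 CPM. YAP1-MAML2-v2 replicates 1 to 7 had 12900, 4960, 23500, 2300, 24300, 4250 and 4620 CPM. The groups overlapped, and the highest YAP1-MAML2-v2 libraries were all extra cranial. The mean was 5350 ± 4350 CPM over the 3 NLS-2SA-YAP1 tumors, against 11000 ± 9450 CPM over the 7 YAP1-MAML2-v2 tumors (both ± SD). The estimate of -1.13 (SE 0.72) had an edgeR adjusted p of 0.539.

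The elastic fiber genes differed between constructs by less than their error. FBN1 encodes fibrillin-1, the backbone of microfibrils, on chromosome 2 at 125300594 to 125507993 (- strand). It was the steadiest gene outside the ventricle, with 228, 700 and 636 CPM in NLS-2SA-YAP1 libraries and 435 to 597 CPM in YAP1-MAML2-v2 libraries. Its highest value there was 3.07 times its lowest, against 164 times for TNC. A gene on the opposite strand, Gm9913, covers 20.1% of the exon bases of Fbn1, and whether the counting used strand is not given. ELN encodes tropoelastin, the soluble precursor of elastin, on chromosome 5 at 134702593 to 134747323 (- strand). NLS-2SA-YAP1 replicates 1, 2 and 3 had 284, 202 and 1420 CPM of it, and the YAP1-MAML2-v2 libraries ran from 54.4 to 1770 CPM. Both groups held a single library far above the others, NLS-2SA-YAP1 replicate 3 and YAP1-MAML2-v2 replicate 4. The log2 fold changes were -0.08 (SE 0.38) for FBN1 and 0.57 (SE 1.08) for ELN.

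FBLN1 and FBLN2 encode fibulins of basement membranes and elastic fibers, on chromosome 15 at 85205949 to 85286535 and chromosome 6 at 91212455 to 91272540 (both + strand). Between constructs their estimates were -0.10 (SE 0.64) and 0.67 (SE 0.80). SPARC, on chromosome 11 at 55394500 to 55423183 (- strand), averaged 2640 ± 942 CPM over the 3 NLS-2SA-YAP1 tumors against 1530 ± 1170 CPM over the 7 YAP1-MAML2-v2 tumors (both ± SD). Its estimate was 0.58 (SE 0.69). The edgeR adjusted p-values of FBN1, ELN, FBLN1, FBLN2 and SPARC lay between 0.774 and 0.97. FBN1, FBLN1, SPARC, ELN, FBLN2 and THBS2 each turned sign in at least 1 of 26 alternative fits of the construct comparison, and FN1, POSTN, TNC and THBS1 in none.

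**Figure D2:**
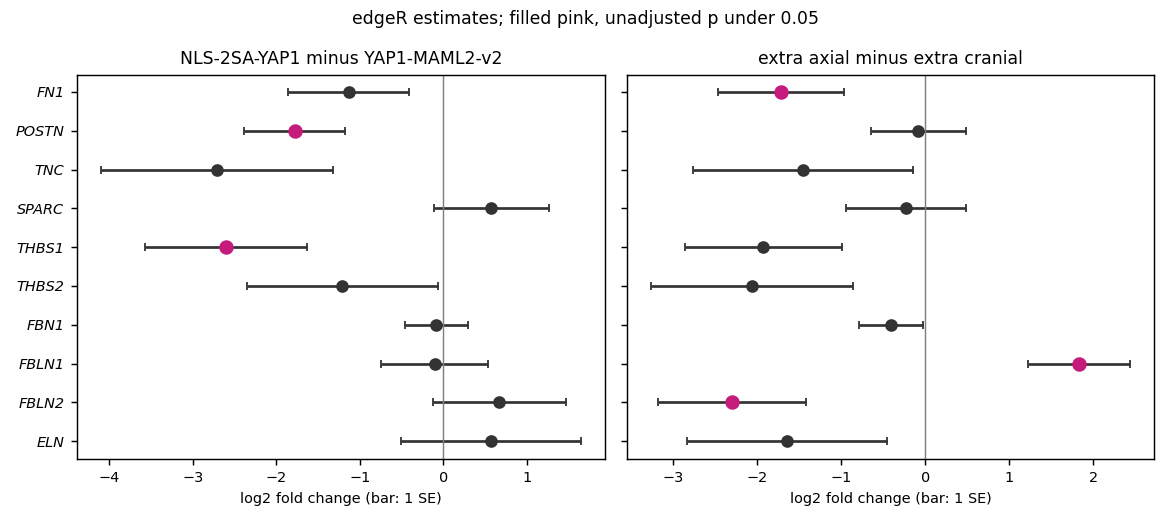
edgeR log2 fold changes with 1 SE for the 10 genes, on the left between NLS-2SA-YAP1 and YAP1-MAML2-v2 tumors, on the right for extra axial minus extra cranial; points filled in pink have an unadjusted p under 0.05. POSTN (-1.78) and THBS1 (-2.6) are pink on the left, and FN1 (-1.72), FBLN1 (1.83) and FBLN2 (-2.3) on the right; none of the 10 passed after adjustment over all genes.

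The second comparison is between extra axial tumors, which lie outside the brain tissue, and extra cranial tumors. The 3 extra axial libraries were set against the 6 extra cranial ones with construct as a term. edgeR called 0 of the 10 genes and 0% of all tested genes at an adjusted p under 0.05. At an unadjusted p under 0.05 there were 3 of the 10, against 3.01% of all genes. FN1 and FBLN2 were lower and FBLN1 was higher in extra axial tumors. Of the 10 estimates, 9 were negative and 1 was positive, with a median log2 fold change of -1.55 against -0.01 over all genes.

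FBLN1 was the gene that stood higher in extra axial tumors. It had 1410 CPM in NLS-2SA-YAP1 replicate 1, and 1170 and 453 CPM in YAP1-MAML2-v2 replicates 2 and 6. Of the extra cranial libraries, NLS-2SA-YAP1 replicates 2 and 3 had 97.8 and 329 CPM, while YAP1-MAML2-v2 replicates 1, 3, 4 and 5 had 356, 613, 120 and 225 CPM. The ranges met only where the lowest extra axial library, at 453 CPM, lay under YAP1-MAML2-v2 replicate 3. The edgeR estimate was a log2 fold change of 1.83 (SE 0.61), at an adjusted p of 1 and an unadjusted p of 0.0139. It lay between 1.29 and 2.78 over 26 alternative fits and never turned. On the log2 scale the difference was 2.98 within NLS-2SA-YAP1 and 1.4 within YAP1-MAML2-v2.

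FBLN2 went the other way. Extra axial libraries held 31.3 CPM in NLS-2SA-YAP1 replicate 1, and 6.08 and 4.72 CPM in YAP1-MAML2-v2 replicates 2 and 6. Of the extra cranial libraries, NLS-2SA-YAP1 replicates 2 and 3 held 42.2 and 43.3 CPM, while YAP1-MAML2-v2 replicates 1, 3, 4 and 5 held 25.6, 146, 49.4 and 26.1 CPM. Within each construct every extra axial library was below every extra cranial one. FBLN2 was the 1 gene of the 10 that did so, and 2.75% of all tested genes separated within both constructs in the same direction, 1.52% with lower extra axial values. The edgeR estimate was a log2 fold change of -2.3 (SE 0.88), at an adjusted p of 1 and an unadjusted p of 0.0261, and it lay between -3.53 and -1.25 over the alternative fits. The lowest of these was the fit without NLS-2SA-YAP1 replicate 1. The estimates of the 2 fibulins had opposite signs.

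FN1 averaged 3830 ± 1390 CPM (SD, n = 3) in extra axial and 12800 ± 9500 CPM (SD, n = 6) in extra cranial tumors. The extra axial libraries ran from 2270 to 4960 CPM, and 4 of the 6 extra cranial ones lay above all of them, at 10300 to 24300 CPM. The extra cranial libraries YAP1-MAML2-v2 replicate 4 and NLS-2SA-YAP1 replicate 2 were also low, at 2300 and 3450 CPM. The edgeR estimate was a log2 fold change of -1.72 (SE 0.75), at an adjusted p of 1 and an unadjusted p of 0.0452. It was -1.4 within NLS-2SA-YAP1 and -1.31 within YAP1-MAML2-v2 as a difference of mean log2 CPM. Over the 26 alternative fits the unadjusted p was under 0.05 in 10 for FN1, against 22 for FBLN1 and 22 for FBLN2.

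THBS1 and THBS2 had negative estimates as well, of -1.93 (SE 0.93) and -2.06 (SE 1.20). Both rest in part on YAP1-MAML2-v2 replicate 3, an extra cranial tumor, without which the THBS1 estimate was -0.99 and the THBS2 estimate -0.69. ELN had -1.65 (SE 1.19), and -0.47 without YAP1-MAML2-v2 replicate 4. TNC had -1.46 (SE 1.31), with -0.58 without YAP1-MAML2-v2 replicate 3 and -0.79 without replicate 6, and -2.28 without NLS-2SA-YAP1 replicate 1. POSTN, SPARC and FBN1 had -0.08 (SE 0.56), -0.23 (SE 0.71) and -0.40 (SE 0.38). For these 7 genes the edgeR adjusted p was 1, and the unadjusted p ran from 0.0671 to 0.886.

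The count of 3 genes dropped to 0 when YAP1-MAML2-v2 replicate 2 was left out and to 1 when NLS-2SA-YAP1 replicate 1 was left out. Skeletal muscle markers were higher in some extra cranial libraries. All 12 markers together summed to 4.88 to 9.07 CPM in extra axial libraries. NLS-2SA-YAP1 replicates 2 and 3 and YAP1-MAML2-v2 replicate 3 had 94.7, 311 and 71.1 CPM. The other extra cranial libraries, YAP1-MAML2-v2 replicates 1, 4 and 5, had 6.99, 7.88 and 7.62 CPM, within the extra axial range. Of the 10 markers that were tested, all had negative estimates in extra axial tumors. At an unadjusted edgeR p under 0.05 there were 4, against 3.01% of all genes, and none after adjustment. MB and MYH2, those of smallest p, lay near the floor. They averaged 0.0173 and 0.00798 CPM in extra axial and 1.62 and 1.18 CPM in extra cranial tumors. With the muscle list as a covariate, FBLN1 had a log2 fold change of 2.26 at an unadjusted edgeR p of 0.0323. FBLN2 had -1.59 and FN1 had -1.4, and their unadjusted edgeR p-values of 0.206 and 0.166 no longer passed. THBS1 had -0.41 and THBS2 had -0.09. In this fit 6 of the 10 estimates were negative and 4 positive, with a median of -0.07 against 0 over all genes. Macrophage markers summed to 547 to 1050 CPM in extra axial and 734 to 2200 CPM in extra cranial libraries. With the macrophage list as a covariate FBLN1 had 1.38 and FN1 had -1.39, and their unadjusted edgeR p-values of 0.108 and 0.143 no longer passed. FBLN2 had -2.99 at an unadjusted edgeR p of 0.00333, and TNC had -2.92 at 0.00236. With this covariate 8 of the 10 estimates were negative and 2 positive, with a median of -1.58 against -0.06 over all genes. None of the 10 passed after adjustment in either fit. No extra axial library was high in muscle markers, so region and the muscle covariate are partly confounded.

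Whether the construct difference depended on region was tested as an interaction over the 9 libraries outside the ventricle. No gene of the 10 passed after adjustment (edgeR adjusted p of 0.67 to 0.994), where 0.00741% of all genes did. POSTN, FBN1 and FBLN2 had an unadjusted p of 0.0309, 0.0322 and 0.0327, against 7.14% of all genes under 0.05. NLS-2SA-YAP1 replicate 1 is the only extra axial tumor of its construct. FBN1 had 228 CPM in that tumor and at least 435 CPM in each of the other 8. POSTN differed by -3.49 on the log2 scale between constructs in extra axial tumors and by -1.29 in extra cranial tumors. FBLN2 differed by -3.11 between regions within YAP1-MAML2-v2, where replicates 2 and 6 were low, and by -0.45 within NLS-2SA-YAP1.

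The intra ventricular tumor, YAP1-MAML2-v2 replicate 7, is a single library and is given as values with no test. Its level was compared with the range of the other 9, a description chosen after the values were seen. POSTN, FBN1, FBLN1 and FBLN2 were each at least 2-fold below the lowest of the other 9 libraries, which was true of 4.18% of all tested genes, while 12% lay that far outside on either side. Of the 10 genes none was 2-fold above the highest, which was true of 7.86% of all tested genes. POSTN was listed at a value of 2 there, or 0.0474 CPM, against 14.7 to 238 CPM elsewhere. FBLN1 had 4.21 CPM against 97.8 to 1410 CPM, 23.2 times below the lowest of the others. FBLN2 had 0.639 CPM against 4.72 to 146 CPM, and FBN1 had 62.5 CPM against 228 to 700 CPM.

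TNC, THBS1 and THBS2 were high in the same library. TNC had 329 CPM there and 3.07 to 503 CPM in the others. THBS1 had 628 CPM against 8.09 to 938 CPM, and THBS2 had 76 CPM against 3.63 to 372 CPM. Each of the 3 ranked second from the top, below YAP1-MAML2-v2 replicate 3 alone. FN1 had 4620 CPM, close to the median of 4960 CPM of the other libraries, while SPARC with 392 CPM ranked second from the bottom.

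**Figure D3:**
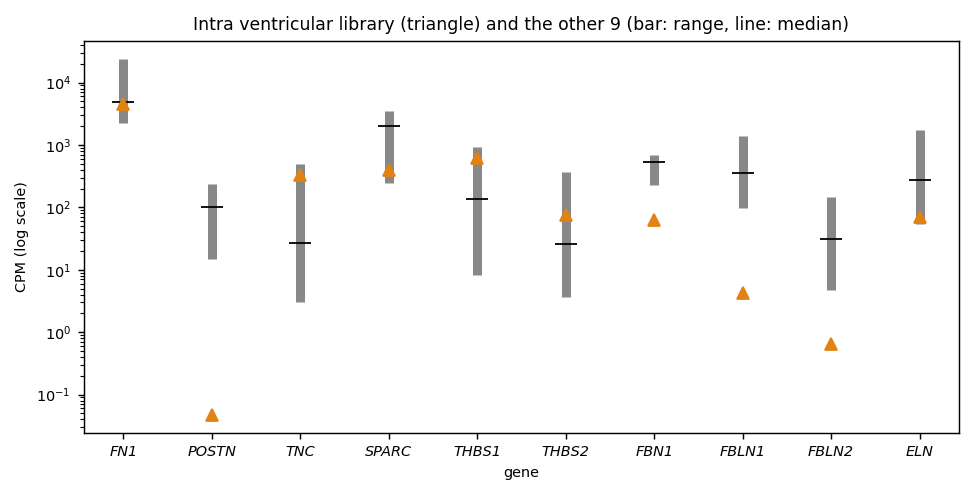
CPM on a log scale in the intra ventricular library (triangle) and the range of the other 9 libraries (bar, with the median as a line) for each gene. The triangle lies below the bar for POSTN, FBN1, FBLN1 and FBLN2 and within it for the other 6 genes.

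Partners of elastic fibers were mixed in this library. Their 15 genes summed to 5380 CPM there, against 2260 to 7220 CPM with a median of 3360 CPM in the other 9. The genes named here were chosen after their values were seen, and all but LTBP2 lay beyond the range of the other 9 libraries. MFAP5, a microfibril-associated glycoprotein, had 0.592 CPM against 37.8 to 879 CPM in the others. LTBP4, which binds latent TGF-beta to fibrillin, had 33.6 CPM against 80.1 to 860 CPM. These were 2 of the 15 tested partners that lay 2-fold below the range, against 4.18% of all tested genes, and none lay 2-fold above. HMCN1, a giant protein of the fibulin family also called fibulin-6, had 279 CPM against at most 190 CPM, and LTBP2, a relative of LTBP4, had 2060 CPM against 101 to 4380 CPM. TNXB, the tenascin of loose connective tissue, had 7.91 CPM against 35.3 to 793 CPM. TNR, the tenascin of the brain, had 9.12 CPM against at most 3.62 CPM. SPOCK1, SPOCK2 and SPOCK3 are proteoglycans related to SPARC and abundant in brain. These 3 of 8 relatives of SPARC and periostin lay 2-fold above the range, which was true of 7.86% of all tested genes. SPOCK2, for example, had 156 CPM against at most 14.4 CPM.

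Markers of other cell types moved with these values, and their part in them was not tested. All 7 astrocyte markers lay at least 2-fold above the range of the other libraries, with a sum of 2280 CPM against 50.6 to 197 CPM. Of all tested genes 7.86% lay that far above the range and 4.18% that far below. GFAP, the filament of astrocytes, had 1200 CPM against at most 39.9 CPM. Of 12 markers of activated fibroblasts, 6 lay 2-fold below and 1 above, with a sum of 2610 CPM against 5780 to 27200 CPM. COL1A1, a chain of the main fibrillar collagen, had 321 CPM there against 720 to 8840 CPM. PDGFRA, also a marker of oligodendrocyte precursors, was the 1 above, with 115 CPM against at most 40.7 CPM. Markers of arachnoid and meningeal fibroblasts summed to 11200 CPM against 1300 to 10000 CPM, with 1 of 9 2-fold above the range and 1 below. Their mean log2 CPM, 7.85, was not the highest, as YAP1-MAML2-v2 replicate 3 had 8.36. Endothelial markers summed to 999 CPM against 163 to 646 CPM. Of 3 tested neuron markers 2 lay 2-fold above the range, and the mean log2 CPM of the 3 was 6.8 against at most 4.46. All 7 listed ones summed to 657 CPM against 383 to 1080 CPM.

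The sequences upstream of genes that stood apart are shown because POSTN, FBLN1 and FBLN2 were low in the same library while TNC was high. RefSeq start sites (GRCm38.p6) matched 7 of the 10 genes, with 10 start sites in all. Each window holds 250 bases before the start in lower case and 50 bases from the start in capitals, 5′ to 3′ on the gene's strand.
Postn, chr3:54360857-54361156, + strand: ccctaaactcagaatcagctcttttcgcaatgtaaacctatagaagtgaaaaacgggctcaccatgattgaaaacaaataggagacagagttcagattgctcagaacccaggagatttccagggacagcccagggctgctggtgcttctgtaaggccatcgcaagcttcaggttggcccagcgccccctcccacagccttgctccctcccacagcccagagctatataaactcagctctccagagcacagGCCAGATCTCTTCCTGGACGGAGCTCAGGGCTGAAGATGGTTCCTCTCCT
Fbln1, chr15:85205699-85205998, + strand: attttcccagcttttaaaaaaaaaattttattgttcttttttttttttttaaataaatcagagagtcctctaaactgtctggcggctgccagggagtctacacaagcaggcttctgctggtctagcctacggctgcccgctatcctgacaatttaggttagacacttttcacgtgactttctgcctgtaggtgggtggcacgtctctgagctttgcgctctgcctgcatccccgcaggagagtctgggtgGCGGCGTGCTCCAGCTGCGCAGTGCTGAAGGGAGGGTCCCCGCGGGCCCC
Fbln2, chr6:91212514-91212813, + strand: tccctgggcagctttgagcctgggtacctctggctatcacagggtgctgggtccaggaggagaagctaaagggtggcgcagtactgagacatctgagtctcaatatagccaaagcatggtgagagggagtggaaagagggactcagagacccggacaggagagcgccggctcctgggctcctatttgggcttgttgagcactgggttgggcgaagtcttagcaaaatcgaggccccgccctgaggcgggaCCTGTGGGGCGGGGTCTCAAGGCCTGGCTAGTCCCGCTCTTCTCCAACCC
Tnc, chr4:64046887-64047186, - strand: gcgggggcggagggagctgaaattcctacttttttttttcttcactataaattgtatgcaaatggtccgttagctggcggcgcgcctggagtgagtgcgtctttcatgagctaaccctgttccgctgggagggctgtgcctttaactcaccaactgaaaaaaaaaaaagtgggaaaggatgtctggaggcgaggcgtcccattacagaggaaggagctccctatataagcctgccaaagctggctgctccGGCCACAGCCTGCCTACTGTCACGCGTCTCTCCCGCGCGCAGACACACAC
The TEAD core GGAATG, the short sequence bound by the DNA-binding partners of YAP1, and the AP-1 sequence TGANTCA were searched on both strands. Neither was found in any of the 10 windows. Over all 32851 start-site windows of the same 300 bases, 14.7% held GGAATG and 7.81% held TGANTCA. The absence says only that these letters are not in these windows.

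The 10 genes did not vary as 1 block. Among 45 pairs, 0 had an adjusted p under 0.05 by Pearson's r or Spearman's rho of log2 CPM over the 10 libraries, with 100000 permutations and Benjamini-Hochberg adjustment. SPARC and ELN had a Pearson r of 0.69 (permutation p = 0.0287, adjusted p = 0.382) and a Spearman rho of 0.75 (permutation p = 0.017, adjusted p = 0.649). Without the 2 libraries farthest from the median of SPARC, r was 0.54. TNC and THBS1 had an r of 0.72 (permutation p = 0.0181, adjusted p = 0.382) and a rho of 0.55 (permutation p = 0.103, adjusted p = 0.69), and r was 0.38 without the 2 libraries farthest from the median of TNC. POSTN and FBN1 had the highest r, 0.92 (permutation p = 0.0148, adjusted p = 0.382), with a rho of 0.19 (permutation p = 0.608, adjusted p = 0.996). Without the 2 libraries farthest from the median of POSTN, r was -0.67, so the relation rests on those libraries. Within the 7 YAP1-MAML2-v2 libraries r was 0.65 for SPARC and ELN and 0.67 for TNC and THBS1, and no pair passed adjustment by exact permutation.

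**Figure D4:**
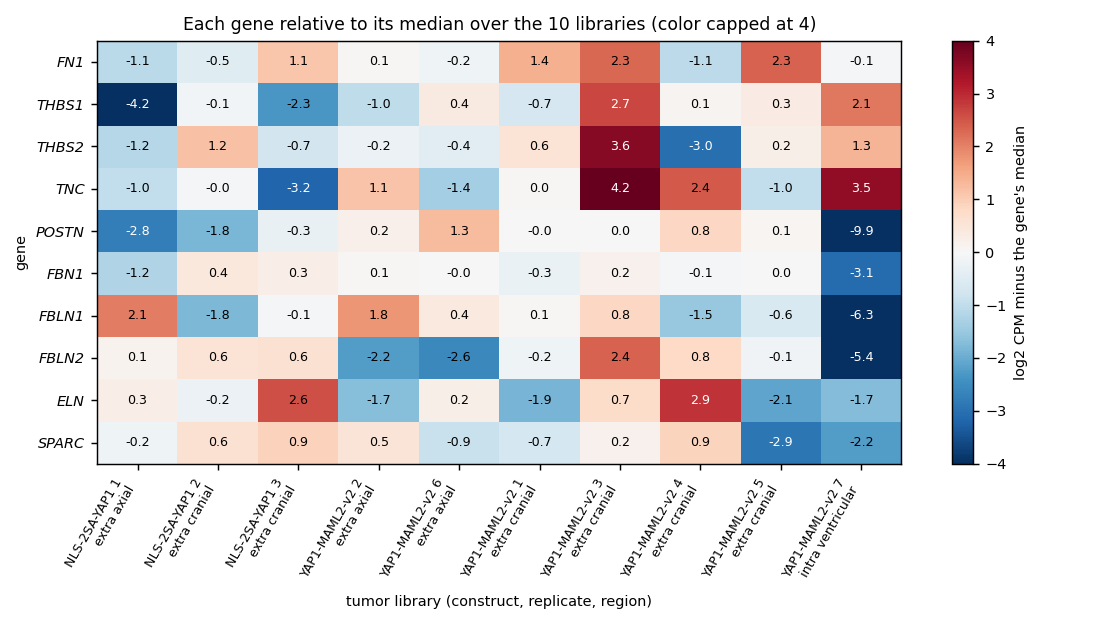
log2 CPM of each gene minus its median over the 10 libraries, with NLS-2SA-YAP1 libraries left, YAP1-MAML2-v2 libraries right and, within each, extra axial, extra cranial and intra ventricular tumors; red is above and blue below the median. YAP1-MAML2-v2 replicate 3 is above the median for all 10 genes, and the intra ventricular library is blue for POSTN, FBN1, FBLN1 and FBLN2 and red for TNC, THBS1 and THBS2.

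YAP1-MAML2-v2 replicate 3 had the highest mean log2 CPM over the 10 genes, 9.39, where the other libraries had 5.51 to 7.9. It was the highest of all 10 libraries for TNC, THBS1, THBS2 and FBLN2. Skeletal muscle markers summed to 71.1 CPM in it and to 4.88 to 9.07 CPM in the other 6 YAP1-MAML2-v2 libraries. In NLS-2SA-YAP1 replicates 1, 2 and 3 they summed to 4.91, 94.7 and 311 CPM, where the mean log2 CPM over the 10 genes was 6.77, 7.51 and 7.57. Apart from the fits with the muscle list as a covariate, the part of muscle in these matrix values was not tested.

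Other genes whose levels followed a member most closely were taken by the highest Pearson r of log2 CPM over the 10 libraries among 11037 genes. This choice makes the values high, so they carry no test. FN1 was closest to TNFRSF11B (0.93), SOAT1 (0.88) and EDN1 (0.86). TNC was closest to HAUS2, MAOA and RABGAP1 (0.94, 0.94 and 0.93), and THBS1 to CBL, SLC26A2 and NSUN3 (0.96, 0.95 and 0.94). THBS2 was closest to MAST4 (0.92), SPARC to FAM57A (0.94), FBLN1 to ABCB10 (0.94), FBLN2 to RNFT1 (0.96) and ELN to EIF1AX (0.89). POSTN was closest to AP4E1 (0.98) and FBN1 to HEYL (0.96), and without the intra ventricular library these were 0.84 and 0.77.

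The related genes of the same families and pathways gave no edgeR call in either comparison. At an unadjusted p under 0.05 between constructs, 3 of 15 elastic fiber partners had higher values in NLS-2SA-YAP1 tumors and 4 had lower ones, where 5.44% of all genes were higher and 7.61% lower. EFEMP1, a fibulin also called fibulin-3, averaged 1290 ± 375 CPM over the 3 NLS-2SA-YAP1 tumors against 473 ± 423 CPM over the 7 YAP1-MAML2-v2 tumors (both ± SD). The latter mean includes 1370 CPM in the intra ventricular tumor, which the estimate leaves to a term of its own. edgeR estimated a log2 fold change of 1.99 ± 0.50 (SE) at an adjusted p of 0.194. EMILIN1, a glycoprotein at the elastin and microfibril interface, averaged 46.3 ± 30.9 CPM over the 3 NLS-2SA-YAP1 tumors against 131 ± 48.6 CPM over the 7 YAP1-MAML2-v2 tumors (both ± SD), with a log2 fold change of -1.81 (SE 0.44; edgeR adjusted p = 0.183). The median log2 fold changes over the list were 0.13 between constructs and -0.11 between regions.

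Of the other thrombospondins, THBS3 averaged 108 ± 29.4 CPM over the 3 NLS-2SA-YAP1 tumors against 51.5 ± 20 CPM over the 7 YAP1-MAML2-v2 tumors (both ± SD), opposite in sign to THBS1. edgeR estimated a log2 fold change of 1.07 ± 0.39 (SE) at an adjusted p of 0.301, and THBS4 had -2.81 (SE 1.21; edgeR adjusted p = 0.368). Among 8 relatives of SPARC and periostin, 2 estimates were positive and 6 negative between constructs. TGFBI, the closest relative of periostin, averaged 620 ± 314 CPM over the 3 NLS-2SA-YAP1 tumors against 209 ± 177 CPM over the 7 YAP1-MAML2-v2 tumors (both ± SD), the opposite direction to POSTN. edgeR estimated a log2 fold change of 1.52 ± 0.58 (SE) at an adjusted p of 0.315. The other tenascins had no member at an unadjusted edgeR p under 0.05 in either comparison.

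Of 13 tested receptors, 5 had positive and 8 negative estimates between constructs. Only ITGA4 had an unadjusted edgeR p under 0.05, where 13.1% of all genes did and 7.61% did so as lower. The receptors thus did not exceed the share over all genes. ITGA4, an integrin chain that binds fibronectin, averaged 5.8 ± 3.25 CPM over the 3 NLS-2SA-YAP1 tumors against 18.9 ± 10.5 CPM over the 7 YAP1-MAML2-v2 tumors (both ± SD; log2 fold change -1.89, SE 0.60, edgeR adjusted p = 0.262). Between regions the estimates of 10 of the 13 receptors were negative. ITGA9, the integrin chain that binds tenascin-C, had 25.9 ± 7.8 CPM (SD, n = 3) in extra axial and 56.4 ± 17.4 CPM (SD, n = 6) in extra cranial tumors. edgeR estimated a log2 fold change of -1.11 ± 0.38 (SE) at an adjusted p of 1.

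Of 7 genes of matrix assembly and pericellular proteolysis, 5 estimates were negative and 2 positive between constructs, and all 7 were negative between regions. MMP2, a gelatinase that also cuts fibronectin, averaged 99.1 ± 53.6 CPM over the 3 NLS-2SA-YAP1 tumors against 519 ± 359 CPM over the 7 YAP1-MAML2-v2 tumors (both ± SD). edgeR estimated a log2 fold change of -2.65 ± 0.58 (SE) at an adjusted p of 0.161.

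Markers of activated fibroblasts did not follow POSTN between constructs. Of the 12 estimates, 10 were positive, with a median log2 fold change of 0.67, and edgeR called none of them. Their sums ran from 6970 to 27200 CPM in NLS-2SA-YAP1 tumors and from 2610 to 22700 CPM in YAP1-MAML2-v2 tumors. ACTA2, smooth muscle actin, averaged 209 ± 16.4 CPM over the 3 NLS-2SA-YAP1 tumors against 62.1 ± 21.7 CPM over the 7 YAP1-MAML2-v2 tumors (both ± SD; log2 fold change 1.67, SE 0.31, edgeR adjusted p = 0.127).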

How the data were processed

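RNA-seq libraries were made from total RNA of 10 flash-frozen tumors with a stranded mRNA kit and pooled 70-plex, per the labels' protocols. The deposited files give 1 value per gene symbol and sample. HTSeq and mm10 are named in the submitters' processing notes, while for the aligner, the annotation and the strand setting the answer is the same: not given in the sources used here. As deposited, the values are whole numbers, but 4.54 to 6.82 times as many genes stood at 1 as at 2 in each library, so they were handled as estimated counts, in place of the plain counts the design assumed. Totals ran from 28001143 to 44544314. Precision at low values is limited, because whether and how the values were adjusted is not known.

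From these values TMM-scaled CPM and log2 CPM (prior count 2) were computed with edgeR 4.0.16 in R 4.3.3. edgeR's quasi-likelihood test was fitted to the 13707 genes kept by its expression filter (minimum count 10), with construct and region as terms, the intra ventricular library under its own term, and Benjamini-Hochberg adjustment over all genes at 0.05. The interaction was fitted to 13487 genes in 9 libraries. Groups came from the labels' tumor and source region entries. Alternatives were other scalings and filters, DESeq2 1.42.0, limma 3.58.1, exact permutation, each library left out, a replicate block, and marker lists as covariates. Scripts were tested on simulated data with changes of 2, 4, 8 and 16-fold, in 50 genes each. Between constructs edgeR called 0%, 20%, 50% and 62% of these genes at an adjusted p under 0.05. Between regions it called 2%, 20%, 56% and 68%. A missing call is therefore no sign that a gene did not differ. Pair correlations used scipy 1.17.1.

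Named genes were the 10 members, at most 2 genes of smallest p for each related list and comparison, and the 3 genes of highest r for each member, of which some are printed. Genes and markers named for the intra ventricular library were chosen after their values were seen. Members and lists were chosen with earlier results of these data known. Protein sequences were not used here. 1 gene of a related list is not reported here.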

Additional observations from a re-analysis of the deposited data

Results flagged for a closer look

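Of 20 groups of 6 or 7 libraries, 8 held a library whose distance to its nearest neighbour took more of the group's range than a fixed cut. In 6 of the 8 that library was YAP1-MAML2-v2 replicate 3, an extra cranial tumor. Among the 7 YAP1-MAML2-v2 libraries THBS2 stood at 372 CPM in replicate 3, with the next at 76 CPM, and FBLN2 at 146 CPM, with the next at 49.4 CPM. Among the 6 extra cranial libraries the same tumor stood apart for TNC at 503 CPM (next 153 CPM), THBS1 at 938 CPM (next 182 CPM), THBS2 at 372 CPM (next 67.7 CPM) and FBLN2 at 146 CPM (next 49.4 CPM). ELN stood at 1770 CPM in YAP1-MAML2-v2 replicate 4, with the next YAP1-MAML2-v2 library at 396 CPM. FBN1 stood at 62.5 CPM in the intra ventricular replicate 7, with the next at 435 CPM. The groups share libraries, so the 8 are not independent. The cut flags about 1 in 20 groups of normally distributed values. It was applied to CPM, where high values stand out more than in log2 CPM, so the 8 cannot be set against that rate. Among YAP1-MAML2-v2 libraries the log2 CPM of THBS2 was 8.54 in replicate 3, with the next at 6.25 and the lowest at 1.88. The rule was not applied to log2 CPM.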

How the results depend on the processing

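Between constructs edgeR called 2 genes, and no member. The count was 4 with no filter, 685 with DESeq2, 92 with limma-voom, 6 with limma on log2 CPM, 0 with exact permutation, 0 with the muscle or the macrophage covariate, 1 with genes near 0 left out, 4 in extra cranial libraries and 6 without YAP1-MAML2-v2 replicates 3 and 7 (added after seeing the data). The smallest p that permutation could give was 0.00833, from 120 splits, and it took no account of region. With so coarse a p adjusted over 13707 genes a call was hardly possible, so the permutation count of 0 decides nothing. Leaving out 1 library gave 0 to 2 genes. Between regions 0 genes were called, 31 with DESeq2 and 0 to 1 with a library left out; the interaction had 1, and 0 to 3 (it could not be fitted without NLS-2SA-YAP1 replicate 1). Members at an unadjusted p under 0.05 numbered 2 between constructs, 1 with limma-voom or permutation, 0 in extra cranial libraries and 0 to 3 with a library left out. Between regions they numbered 3, 5 with DESeq2, 1 with the muscle covariate, 1 within YAP1-MAML2-v2 and 0 to 4 with a library left out.

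With the replicate number as a block in the 6 libraries numbered 1 to 3, 36 genes were called between constructs, 6 between regions, and 1 member had an unadjusted p under 0.05 between regions. Deviations of same-numbered libraries from their construct means correlated at 0.167, 0.337 and -0.072, where differently numbered pairs ran from -0.241 to 0.275. These deviations still hold the region differences, so they cannot show whether same-numbered libraries share a litter or batch. In the fit with the block, TNC, SPARC and ELN turned to 0.06, 0.22 and 0.32 between regions.

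Other estimates turned sign as follows, none past the adjusted threshold. With 1 library left out, the construct estimates ran from -1.68 to 0.17 for THBS2, -0.29 to 0.37 for FBN1, -0.64 to 0.4 for FBLN1, -0.54 to 1.25 for FBLN2 and -0.31 to 1.75 for ELN. The region estimates then ran from -0.75 to 0.53 for POSTN, -0.87 to 0.15 for SPARC and -0.61 to 0.03 for FBN1, and the interactions from -0.35 to 1.17 for FN1, -1.43 to 1.91 for THBS2 and -1.51 to 2.21 for ELN. Between constructs FBN1 was 0.18 with limma-voom, 0.28 by permutation, 0.2 without a region term and 0.37 in extra cranial libraries. FBLN1 was 0.83 by permutation, 0.54 without a region term and 0.22 without YAP1-MAML2-v2 replicates 3 and 7, where THBS2 was 0.16. SPARC was 0 with the muscle covariate and FBLN2 -0.55 in extra cranial libraries. Between regions POSTN was 0.05 with limma-voom, 0.45 with the muscle and 0.1 with the macrophage covariate, 0.32 without a construct term and 0.53 within YAP1-MAML2-v2. SPARC was 0.01 with limma-voom, 0.31 with the muscle covariate and 0.08 within YAP1-MAML2-v2. TNC was 0.12 with the muscle covariate, ELN 0.05 with limma-voom and FBN1 0.04 within YAP1-MAML2-v2. The cause was not tested.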
